A study of Danio rerio with 1152 samples.

Results

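The genes described are cell cycle genes of the zebrafish embryo, split into a list named for S phase and a list named for mitosis. The S phase list includes the G1 and S cyclin genes. A list of 45 gene symbols named for S phase or for mitosis was looked up in a table of 13902 genes, and 39 of the 45 were found, 18 of 19 S phase members and 21 of 26 mitotic members. CDT1 of the S phase list and BUB1, TPX2, CDC25B, INCENP and ESPL1 of the mitotic list were not found by symbol and are not analysed here. The rule that chose the members used no measured level, though the lists were drawn up with earlier results of these data known. Levels were read in single cells of blastoderm caps at 50% epiboly, about 6 hours after fertilization, from in-crosses of TL/AB fish with no mutation or treatment named. Each sample is 1 well into which 1 hand-picked cell was placed, and the labels divide the 1152 wells evenly among 3 experimental batches. No group other than the batch is labelled, and the number of embryos behind a batch is not stated in the labels.

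The cells were also sorted, within each batch, into classes by the level of marker genes. Keratin-rich cells were the top 10% by the summed level of KRT4 and KRT18, keratins of the enveloping layer that covers the blastoderm, and were set against all other cells. TA-positive cells had at least 1 count of TA, the Brachyury gene of the margin, and were set against TA-negative cells with none. SOX3-high cells were the top 1 in 3 by SOX3, a transcription factor gene of the prospective ectoderm, and were set against SOX3-low cells, the bottom 1 in 3. These classes are ranges of a marker's level and not cell types, and the same cells enter all 3 comparisons.

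S phase genes make the machinery that licenses and copies DNA, and mitotic genes make the cyclins, kinases and spindle proteins that divide the copied chromosomes. In many somatic cells the transcripts of each group rise and fall together once per cycle. The early zebrafish embryo begins with rapid, synchronous cleavages driven by maternal transcripts and proteins, and cycles lengthen and lose synchrony after the midblastula transition, before epiboly.

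Wells with at least 2000 detected genes were kept, which left 90.4%, 77.1% and 92.97% of the wells of batches 1, 2 and 3. Totals of the 1000 kept cells ran from 5307 to 132749 UMIs (unique molecular identifiers, which count each captured transcript once), with medians of 57293, 55923 and 35746 in the 3 batches. In 39 wells, 28 of them in batch 1, more than 5000 genes were detected. Some wells held near-identical counts: the closest pair, which spanned batches 1 and 2, differed by less than counting noise (chi-square of 0.500 per degree of freedom, correlation of log levels 0.935), and 6 pairs that joined 11 wells correlated above 0.65. The results on covariation and on classes were therefore also computed without these 11 wells, and no called member gained or lost its call. Levels are given as UMIs per 10000, from counts summed over the cells of a batch or class. Since a molecule is tagged once at its 5′ end, these levels were not divided by gene length.

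The members differed widely in level, and all but CKS2 were present in at least 5% of cells. RRM2, the small subunit of the ribonucleotide reductase that supplies deoxynucleotides, was the highest with 29.5, 24.2 and 29.3 UMIs per 10000 in batches 1, 2 and 3. RRM1, the large subunit of the same enzyme, had 3.76, 2.90 and 3.02 UMIs per 10000. RRM2 was detected in 100% of kept cells of every batch, and its level in single cells ran from 7.87 to 66.4 UMIs per 10000. PCNA, the sliding clamp of the replication fork, came second by its mean, with 12.3, 11.4 and 12.4 UMIs per 10000, but MCM7 lay above it in batch 1 and CCNB1 and CCNE1 in batch 2. FEN1, the nuclease that trims the flaps of Okazaki fragments, had 3.81, 3.84 and 3.37 UMIs per 10000. RPA1 and RPA2, subunits of the single-strand binding protein, were far lower, with means of 1.38 and 0.402 UMIs per 10000 over the batches.

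The MCM genes encode the subunits of 1 helicase ring, but their transcript levels were not equal. MCM7 had 12.6, 10.7 and 11.8 UMIs per 10000. MCM4 had 4.07, 3.25 and 3.61 UMIs per 10000, and MCM3 had 2.67, 2.22 and 2.50. MCM5 was the lowest of the ring with 0.887, 1.12 and 0.696 UMIs per 10000. All of the ring genes but MCM5 were highest in batch 1, MCM2 and MCM6 by the widest margins. MCM2 had 3.35, 2.41 and 2.11 UMIs per 10000 and MCM6 4.05, 2.55 and 2.62 in batches 1, 2 and 3. Of the licensing factors, GMNN (geminin, which blocks relicensing) had 6.56, 7.38 and 5.62 UMIs per 10000, and CDC6, which loads the helicase, had 3.36, 3.82 and 2.78. CDC45, which activates the helicase, was close to the lower limit of detection, with 0.0894, 0.107 and 0.0628 UMIs per 10000 and UMIs in 10.95%, 9.80% and 6.44% of cells.

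G1 and S cyclins were among the higher members. CCND1 (cyclin D1) had 11.4, 10.95 and 11.6 UMIs per 10000 and CCNE1 (cyclin E1) had 10.7, 11.9 and 9.58. CCNE2, the second cyclin E gene, had 6.21, 5.70 and 6.47 UMIs per 10000. CCND1 and CCNE1 could not be ranked against each other, since their batch values overlapped, whereas CCNE2 lay below both in every batch.

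Among the mitotic cyclins, CCNB1 (cyclin B1) stood apart with 12.2, 12.1 and 10.5 UMIs per 10000. CCNB2 had 3.35, 3.56 and 3.29 UMIs per 10000, and CCNB3 had 2.11, 1.86 and 2.32. CCNA2 (cyclin A2) had 1.80, 2.03 and 1.84 UMIs per 10000, and CDK1, the kinase that these cyclins activate, had 1.67, 1.90 and 1.96. The batch values of CCNA2, CDK1 and CCNB3 overlapped. CKS1B, a small CDK-binding protein, had 3.44, 3.44 and 3.43 UMIs per 10000 and was the member that varied least between batches. Its paralog CKS2 had UMIs in only 1.15%, 1.35% and 1.12% of cells and was not tested.

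The means of the mitotic kinases and the other division genes ran from 0.505 UMIs per 10000 for BUB3 to 5.60 for PTTG1. PLK1 (polo-like kinase) had 3.74, 3.54 and 3.47 UMIs per 10000, AURKA, the centrosomal Aurora kinase, had 3.17, 3.46 and 3.56, and AURKB, the Aurora kinase of the chromosomal passenger complex, had 2.20, 2.18 and 2.20. BIRC5A (survivin, of the same complex) had 3.42, 3.14 and 3.35. PTTG1 (securin, which holds back chromatid separation) and UBE2C, an E2 enzyme of the anaphase-promoting complex, were the highest after CCNB1, with means over batches of 5.60 and 4.47 UMIs per 10000. CDC20, an activator of that complex, averaged 3.46. Of the spindle and checkpoint genes, MAD2L1 averaged 3.42 UMIs per 10000, NUSAP1 2.31, the motor genes KIF11 and KIF23 1.74 and 1.72, the kinetochore gene NDC80 1.40 and the checkpoint gene BUB3 0.505. TOP2A, the topoisomerase that untangles sister chromatids, averaged 0.955.

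**Figure D1:**
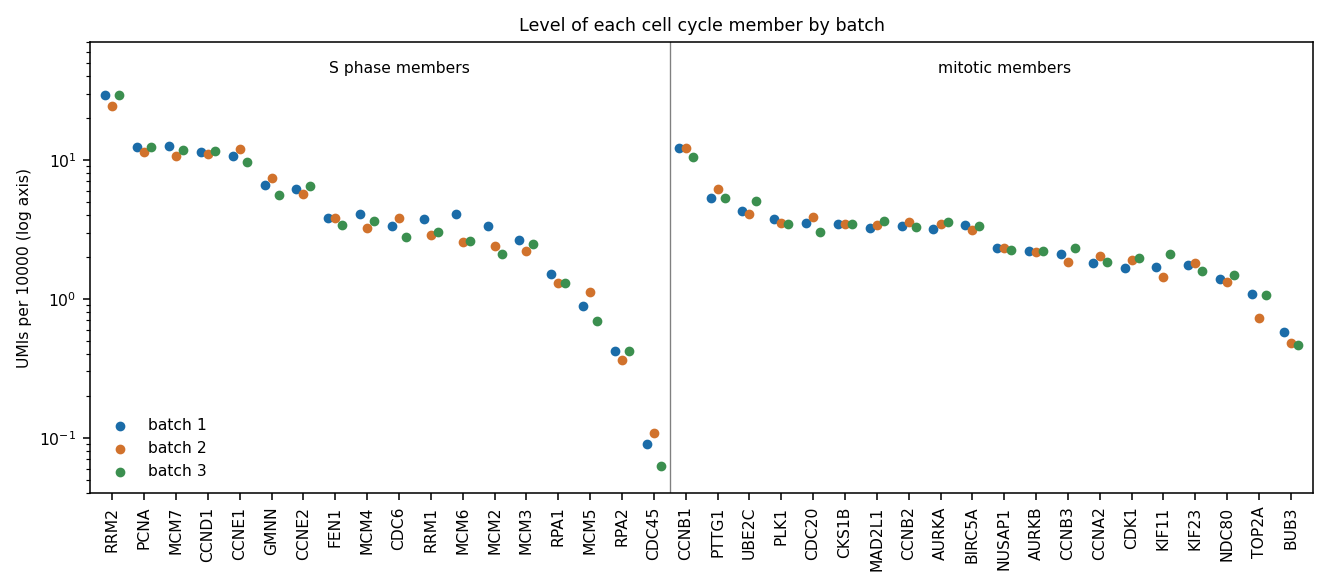
Level of 38 members in UMIs per 10000 (log axis), 1 point per batch, with S phase members left and mitotic members right, each ordered by mean level; CKS2 is left out. RRM2 is the highest in every batch, CDC45 the lowest, and the points of 1 gene lie close together compared with the spread between genes.

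The levels of the members were steady between batches. The ratio of the highest to the lowest batch had a median of 1.17 over the 38 members, beside 1.37 over the 8300 genes present in 5% of cells and 1.27 over the 4840 genes present in 20% of the cells of each batch. It was 1.59 for both MCM2 and MCM6, 1.60 for MCM5 and 1.71 for CDC45. Low counts vary more by sampling, and no background of genes matched to the members in level was computed for this ratio. The S phase members together had 117.2, 106.2 and 109.2 UMIs per 10000 in batches 1, 2 and 3, and the mitotic members together had 62.3, 62.8 and 61.9. The summed S phase level was highest in batch 1, and the summed mitotic level differed by less than 1 UMI per 10000 between the batches.

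Between single cells the sums varied moderately. The summed S phase level per cell ran from 62.97 to 168.99 UMIs per 10000 in batch 1, from 49.2 to 152.3 in batch 2 and from 53.6 to 162.98 in batch 3. The summed mitotic level ran from 26.8 to 94.1, from 10.0 to 97.2 and from 23.5 to 104.3. The 90th percentile was 1.39, 1.5 and 1.43 times the 10th for the S phase sum and 1.69, 1.68 and 1.86 times for the mitotic sum. No kept cell lacked either group of transcripts. The mitotic sum moved with depth: its Spearman correlation with the total UMIs of a cell was 0.247, 0.173 and 0.349 in the 3 batches, and that of the S phase sum was -0.146, 0.0151 and 0.152. The part of depth in the spread of the mitotic sum was not tested.

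Cells with a higher S phase sum did not tend to have a lower mitotic sum. Across the cells of a batch the rank correlation of the 2 sums was 0.0651, 0.134 and 0.179 in batches 1, 2 and 3, over the kept cells of each. Both sums come from the same library and share its total. These correlations were weak and none was negative. The most abundant members weigh most in the sums, and a split of the cells by the other members was not tested.

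**Figure D2:**
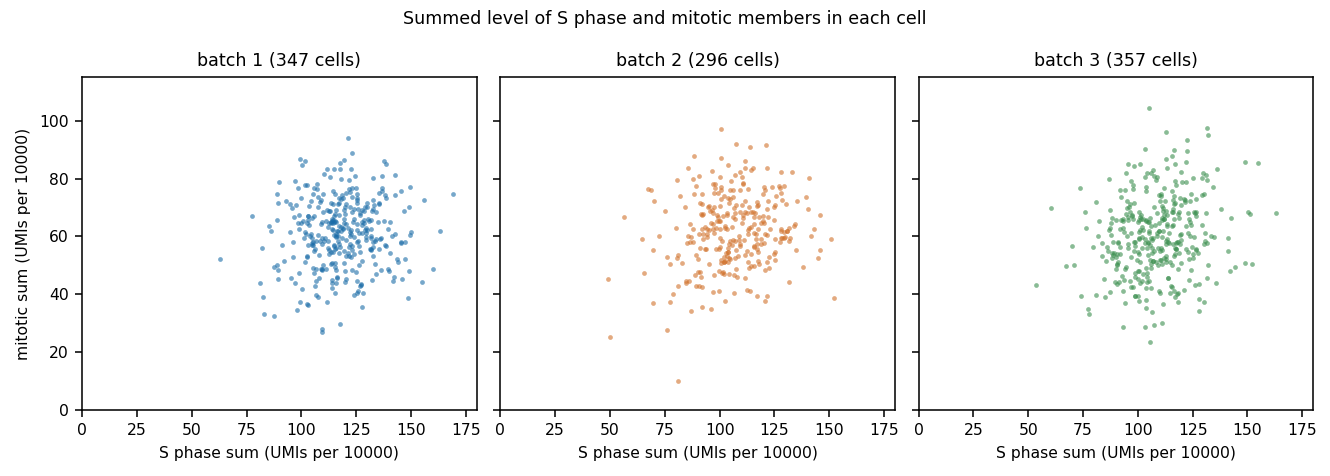
Summed level of the mitotic members (vertical, UMIs per 10000) against that of the S phase members (horizontal, UMIs per 10000) in each kept cell, 1 panel per batch. The cells of each batch form 1 cloud, with rank correlations of 0.0651, 0.134 and 0.179 in batches 1, 2 and 3.

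The variability of the members between cells was close to that of other well-detected genes. After each cell was thinned to 10000 UMIs, which left out 7 shallower cells, the median variance over mean was 2.49, 3.04 and 2.60 for the S phase members in batches 1, 2 and 3 and 2.42, 3.10 and 2.65 for the mitotic members. Over all genes of 1 or more thinned UMIs per cell it was 2.41, 3.10 and 2.52, over all genes present in 5% of cells it was 2.27, 2.80 and 2.30, and counting error alone would give 1. Both phases thus lay above the wider set in every batch and close to the set of higher level, with S phase members below it in batch 2. The member with the highest value was CKS1B at 3.55 ± 0.755 (SD of 3 batches), and among members above 1 UMI per 10000 the lowest was CCNB3 at 2.34 ± 0.254. CDK1, at 3.08 ± 0.314, was above most members, and its shares of cells show what such a value means. A CDK1 UMI was held by 56.1%, 51.9% and 57.9% of thinned cells. An even spread of the same mean would give 79.7%, 83.1% and 85.3%. Such shares were not computed for genes outside the members. In unthinned cells CDK1 was found in 77.5%, 65.2% and 70.3%.

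Covariation of members was examined in 37 members present in at least 20% of the cells of every batch, 17 of S phase and 20 of mitosis. Within a batch, levels as log2(1 + UMIs per 10000) were regressed on the count of detected genes and their residuals correlated across cells by Spearman's method, with no test. The median correlation over all pairs of S phase members was 0.0177, 0.0251 and 0.0208 in batches 1, 2 and 3. Over the 190 pairs of mitotic members it was 0.0250, 0.0042 and 0.0211. Over the 340 pairs that cross the phases it was 0.00538, 0.0155 and 0.0135. Pairs within a phase were thus hardly closer than pairs across phases. The S phase pairs were above the crossing pairs in every batch by small amounts, while in batch 2 the mitotic pairs were below the crossing pairs. The median over all pairs of the 4840 genes present in 20% of cells was 0.00730, 0.0123 and 0.0137, and over pairs of all genes present in 5% it was 0.0225, 0.0307 and 0.0307.

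The most alike pairs were weak, and in counts this sparse they are given as a description only. Of the mitotic pairs, PLK1 and CKS1B had 0.201, 0.167 and 0.0884 in batches 1, 2 and 3, PLK1 and KIF11 had 0.167, 0.162 and 0.114, and CDK1 and AURKA had 0.0750, 0.135 and 0.207. AURKA with AURKB had 0.137, -0.00051 and 0.201, and AURKA with NUSAP1 0.0170, 0.217 and 0.0840. For both of these pairs the SD between batches was close to the mean.

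Of the S phase pairs, PCNA and MCM6 had 0.121, 0.126 and 0.151. MCM2 with MCM3 averaged 0.113, MCM2 with MCM6 0.107 and MCM4 with CCNE2 0.103. MCM7 and CCNE2 had 0.0933, 0.217 and -0.0217 in batches 1, 2 and 3 and owed its place to batch 2. MCM genes were also in the lowest S phase pairs, MCM7 with CCNE1 at -0.0844, MCM4 with FEN1 at -0.0770 and MCM7 with GMNN at -0.0742 on average. Pairs that cross the phases reached the same size: RRM1 with KIF11 averaged 0.133, GMNN with CCNB2 0.123 and MCM7 with AURKA 0.117. Geminin with cyclin B2 had 0.106, 0.119 and 0.144 in the 3 batches. The lowest crossing pairs were CCND1 with BIRC5A at -0.0923, CDC6 with BUB3 at -0.0897 and CDC6 with UBE2C at -0.0794 on average.

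**Figure D3:**
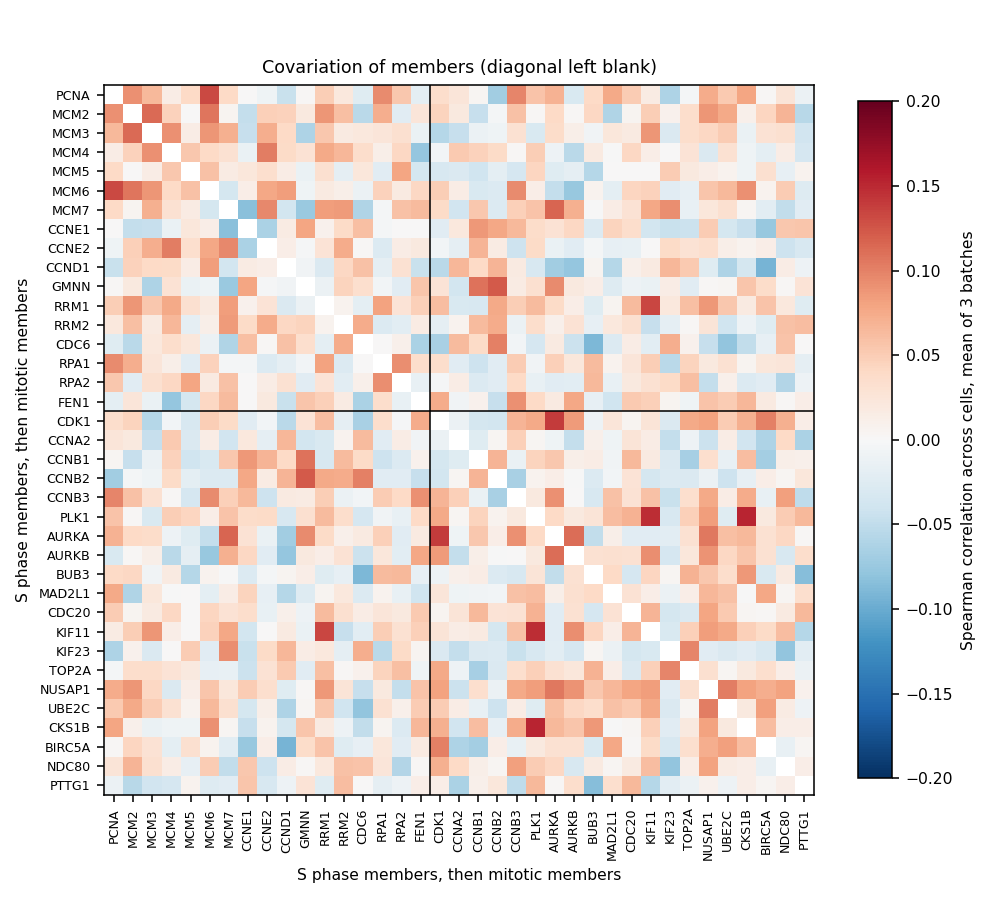
Spearman correlation across cells between 37 members, as the mean of the 3 batches, with S phase members before mitotic members on both axes and black lines between the phases. Colours run from -0.2 to 0.2, and no block of either phase stands out; the deepest cell is PLK1 with CKS1B at 0.152.

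Some members had a higher median correlation with their own phase than with the other phase in every batch. These were 6 of 17 S phase members and 4 of 20 mitotic members. For 0 S phase and 2 mitotic members the correlation with their own phase was the lower in every batch. Signs that vary at random would also agree across batches for some members, and these counts have no background share beside them. They are given as a description, and a lean of members toward their own phase was not tested. MCM6 averaged 0.0474 with S phase members and 0.00692 with mitotic members. NUSAP1, a spindle microtubule protein, averaged 0.0501 with mitotic members and 0.0254 with S phase members. KIF23, a motor of cytokinesis, averaged -0.0272 with its own phase and 0.0146 with the other. All of these values are small beside the spread of single pairs.

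Outside the list, 4209 genes present in 20% of cells were ranked by their mean correlation with the mean standardized level of each phase. The closest to the mitotic mean were HMGN2 at 0.178, PARN at 0.166, KPNB1 at 0.161, HSPE1 at 0.160, STX4 at 0.144, WDR75 at 0.143, RNASEH2A at 0.137, PPIAB at 0.135, CHD4A at 0.130 and ATPIF1A at 0.130. Among the closest to the S phase mean were ZIC2B at 0.170, SOX3 at 0.164, ASB11 at 0.160, HNRNPA0B at 0.150, WDR43 at 0.145, CTCF and ANP32A both at 0.140, MORC2 at 0.139 and EIF4BB at 0.139. SOX3, which ranked second, had 0.112, 0.207 and 0.174 with the S phase mean in batches 1, 2 and 3 and 0.0688, 0.134 and -0.00068 with the mitotic mean. The median over the 4209 genes was 0.0020 for the S phase mean and -0.0024 for the mitotic mean.

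In keratin-rich cells no member passed the test, and the members nearest to a call, CDK1 and MCM2 first, all lay below the other cells. Class sums were compared with edgeR's quasi-likelihood test with batch as a block, and calls have a Benjamini-Hochberg adjusted p under 0.05 over all genes. The keratin-rich cells, 35, 30 and 36 in batches 1, 2 and 3, were set against 899 other cells. Of 8298 genes tested, 1.66% were called, 1.54% higher and 0.121% lower, and 0 of 38 members were called. At an unadjusted p under 0.05 there were 8 members, all lower, beside 9.03% of all genes in either direction and 4.39% lower. All genes have larger errors than the members (median SE 0.37, against 0.15), so these shares are not a like background. DESeq2 called 1 member, MCM2.

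CDK1 had 1.46, 0.835 and 1.12 UMIs per 10000 in keratin-rich cells of batches 1, 2 and 3, against 1.69, 2.00 and 2.05 in other cells. Its 3 keratin-rich values lay below all 3 values of other cells. The log2 difference was -0.74 (SE 0.21, adjusted p = 0.0965), a level 1.67-fold lower that did not pass. It passed without batch 1 (-1.07, adjusted p = 0.0495), without wells of over 5000 genes (-0.92, adjusted p = 0.0160), without the filter on low counts (-0.83, adjusted p = 0.0060) and with the top 20% as the class (-0.83, adjusted p = 0.000286). Its log2 difference ran from -1.07 to -0.43 over the alternatives.

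MCM2 had 2.20, 1.69 and 1.47 UMIs per 10000 in keratin-rich cells, against 3.46, 2.48 and 2.17 in other cells. The keratin-rich value was the lower in each batch, while the 2 groups overlapped because batch 1 was high in both. The log2 difference was -0.57 (SE 0.16, adjusted p = 0.0958), and it passed with DESeq2 (adjusted p = 0.0483) and without the filter on low counts (adjusted p = 0.0281).

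CCNB3 (log2 -0.50, adjusted p = 0.250), AURKB (-0.49, adjusted p = 0.327), AURKA (-0.45, adjusted p = 0.246), FEN1 (-0.43, adjusted p = 0.277) and MCM6 (-0.40, adjusted p = 0.397) had the next largest log2 differences among well-detected members. AURKA had 2.15, 2.41 and 3.03 UMIs per 10000 in keratin-rich cells, against 3.27, 3.55 and 3.61 in other cells, with no overlap. CDC45 had the largest log2 difference, -1.54, but an SE of 0.81 at its low level (adjusted p = 0.592). Every member named here lay below the other cells in all 3 batches.

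By role, log2 differences below 0 were found for 2 of 3 G1 and S cyclins, 7 of 9 licensing and helicase members, 5 of 6 members of the fork and nucleotide supply, 5 of 6 mitotic cyclins and CDK genes, 4 of 4 mitotic kinase and passenger members (median -0.30), 4 of 6 spindle and checkpoint members and 4 of 4 members of chromatid separation and the anaphase-promoting complex (median -0.20), beside 54.6% of all genes tested. BIRC5A, counted among the passenger members, was at -0.01 (SE 0.15). RRM2 (-0.03, SE 0.11), CCND1 (0.06, SE 0.12), CCNE1 (-0.07, SE 0.12) and CCNA2 (0.01, SE 0.17) differed by less than their error. In all 3 batches, 8 of 18 S phase and 10 of 20 mitotic members lay below the other cells, beside 18.8% of all genes tested. Genes with larger errors keep 1 direction over batches less easily, and all genes have larger errors than the members (median SE 0.37, against 0.15). The median log2 difference was -0.11 for S phase members, -0.16 for mitotic members and -0.04 for all genes. The summed mitotic level was 54.2, 54.8 and 54.95 UMIs per 10000 in keratin-rich cells, against 63.1, 63.5 and 62.6 in other cells, which is 0.859, 0.862 and 0.878 times as high. The summed S phase level was 108.2, 101.2 and 101.9 UMIs per 10000, against 118.1, 106.6 and 109.97 in other cells, or 0.916, 0.95 and 0.927 times.

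Other cell cycle genes were read from lists of the same pathways. None of 40 other replication genes, 54 other mitosis genes and 19 other cohesin and anaphase-promoting complex genes passed in keratin-rich cells. Of 25 tested genes of G1 control and checkpoints, 3 were higher and 0 lower. TOB1A, of the TOB/BTG family of antiproliferative proteins, had 1.31, 2.51 and 1.44 UMIs per 10000 in keratin-rich cells, against 0.518, 0.885 and 0.811 in other cells (log2 1.25, SE 0.21, adjusted p = 0.000438). BTG2, of the same family, had 3.98, 8.09 and 4.47 UMIs per 10000, against 3.31, 3.65 and 3.42 (log2 0.63, SE 0.16, adjusted p = 0.0336). The call of BTG2 was lost when any 1 batch was left out (adjusted p = 0.0893 without batch 1, 0.304 without batch 2 and 0.0662 without batch 3). That of TOB1A was lost without the batch block and with batch 1 split into 4 blocks by title code (adjusted p = 0.057 in both). The third row, CKI, stands on the list by its symbol alone and matches no annotated gene in the tables used here, so the count without it is 2 of 24. It had 0.778, 1.26 and 1.097 UMIs per 10000, against 0.166, 0.0720 and 0.116 (log2 3.21, SE 0.34, adjusted p = 4.06e-07).

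Of the genes without a call, POLA2 and TK1 had the largest log2 differences of the replication list (-0.77 and -0.77), CENPO and KIF14 of the mitosis list (-1.90 and -1.20), and ANAPC2 and STAG2A of the cohesin and anaphase-promoting complex list (-1.70 and 1.1). All of them had adjusted p of at least 0.368.

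The keratin-rich class differed from other cells in more than keratins. Of 20 other enveloping layer markers found in the table, 13 of 18 tested were higher, with a summed level of 28.4 to 57.8 UMIs per 10000 in keratin-rich cells, against 11.4 to 13.1 in other cells. These genes include the junction protein genes CLDNE and PPL. Of margin markers, 3 of 18 were higher, and the summed level was 15.6 to 21.1, against 11.8 to 20.7. Ectoderm markers had 3 of 11 tested higher and a summed level of 19.4 to 20.55, against 19.5 to 20.8. No yolk syncytial layer marker of 6 passed (4.26 to 9.44, against 3.97 to 4.69), and 1 of 7 germ cell markers was lower (4.03 to 4.52, against 3.72 to 6.03). Of 9 tested genes of the p53 and stress list 1 was higher, GADD45BA, with summed levels of 14.1 to 18.3, against 15.4 to 16.1. Median depth was also lower, with 51179, 35662 and 32738 UMIs per keratin-rich cell, against 57955, 56609 and 36340 in other cells. The median count of detected genes did not follow, with 3656, 3526 and 3125.5, against 3659, 3325 and 3177, and was higher in keratin-rich cells of batch 2. The part of depth and of these markers in the members' differences was not tested. Thinning to equal depth also redrew the keratin-rich class from thinned counts. The median log2 difference was then -0.04 for S phase members, -0.10 for mitotic members and -0.03 for all genes.

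TA-positive and TA-negative cells differed little in the members. Of 8299 genes, 1.47% were called, 1.2% higher and 0.265% lower, and 0 of 38 members were called by edgeR or DESeq2. At an unadjusted p under 0.05 there were 3 members, beside 8.24% of all genes. Of the 38, 35 had log2 differences within 0.2 of 0, beside 60.1% of all genes, which have larger errors (median SE 0.22, against 0.077 for the members). The summed S phase level was 116.2, 105.5 and 109.05 UMIs per 10000 in TA-positive cells of batches 1, 2 and 3, against 118.5, 106.7 and 109.6 in TA-negative cells. The summed mitotic level was 62.5, 62.1 and 62.6, against 62.1, 63.3 and 60.3.

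MCM6 and CCNB3 were the members nearest to a call. MCM6 had 3.73, 2.35 and 2.52 UMIs per 10000 in TA-positive cells, against 4.45, 2.71 and 2.85 in TA-negative cells (log2 -0.23, SE 0.074, adjusted p = 0.231). CCNB3 had 1.99, 1.71 and 2.14 UMIs per 10000, against 2.25, 1.97 and 2.72 (log2 -0.26, SE 0.087, adjusted p = 0.288). Both lay below TA-negative cells in every batch, and the groups overlapped across batches.

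KIF11 had 1.86, 1.61 and 2.13 UMIs per 10000 in TA-positive cells, against 1.47, 1.29 and 2.07 in TA-negative cells (log2 0.21, SE 0.10, adjusted p = 0.598). BUB3 (0.19) and PLK1 (-0.13), and among S phase members CCNE1 (-0.11), MCM5 (0.09) and MCM7 (-0.05), complete the largest log2 differences, each within 2 SE of 0.

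Of the other pathway genes, only WEE1 was called, out of 54 tested genes of mitosis. WEE1 encodes the kinase that holds CDK1 inactive. It had 0.379, 0.417 and 0.404 UMIs per 10000 in TA-positive cells, against 0.213, 0.170 and 0.222 in TA-negative cells, and the groups did not overlap (log2 0.98, SE 0.23, adjusted p = 0.0386). The call was lost when any 1 batch was left out (adjusted p from 0.0957 to 0.231), after thinning, which also moved cells that lost their TA counts into the TA-negative class (log2 0.66, adjusted p = 0.469), and without the batch block (0.97, adjusted p = 0.163). None of 40 replication, 19 cohesin and anaphase-promoting complex and 25 G1 control genes passed. Their largest log2 differences were those of ASF1BB (-0.97) and POLE2 (-0.87), of RAD21B (-0.61) and ANAPC4 (-0.55), and of RAD1 (-0.69) and CKI (0.53).

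Margin markers marked the class: 16 of 18 were higher, and their summed level was 17.1 to 26.8 UMIs per 10000 in TA-positive cells, against 5.34 to 7.31 in TA-negative cells. Of 11 tested ectoderm markers 2 were lower, with a summed level of 16.6 to 18.5, against 22.2 to 24.3. None of 18 enveloping layer (13.2 to 17.8, against 12.6 to 14.8), 6 yolk syncytial layer (4.37 to 5.03, against 3.95 to 4.56) and 7 germ cell markers (4.19 to 5.20, against 2.95 to 8.61) passed, and 2 of 9 stress genes were higher (15.7 to 16.99, against 14.5 to 15.4). TA-positive cells had the higher median depth in every batch, with 57802, 56884 and 39168 UMIs, against 57022, 55074 and 31977 in TA-negative cells. The gap was widest in batch 3. Their median count of detected genes was also higher in each batch, with 3780.5, 3546.5 and 3283, against 3544, 3160 and 2993.5. A deeper cell is more likely to show a TA count, and the part of depth was not tested.

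SOX3-high cells had more CCNB3 than SOX3-low cells, the 1 member called in any of the 3 comparisons. CCNB3, a B-type cyclin, had 2.51, 2.12 and 2.55 UMIs per 10000 in SOX3-high cells of batches 1, 2 and 3, against 1.5, 1.48 and 2.03 in SOX3-low cells. The SOX3-high values lay above the SOX3-low values without overlap. The log2 difference was 0.57 (SE 0.13, adjusted p = 0.0238), a 1.48-fold higher level. Of 8177 genes 2.46% were called, 0.66% higher and 1.8% lower, and 1 call among 38 members is close to that background. CCNB3 missed the threshold without batch 1 (log2 0.46, adjusted p = 0.533), after thinning (0.43, adjusted p = 0.207), without TA-positive cells (0.48, adjusted p = 0.485) and without the batch block (0.55, adjusted p = 0.368), and its direction was the same in each. The thinned fit redrew the classes from thinned counts. For classes drawn before thinning, 76.7%, 72.4% and 76.3% of thinned SOX3-high cells held a CCNB3 UMI, against 69.8%, 51.5% and 63.2% of SOX3-low cells.

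The other B cyclins did not share this pattern of values. CCNB2 had 3.01, 2.87 and 3.08 UMIs per 10000 in SOX3-high cells, against 3.75, 3.90 and 3.18 in SOX3-low cells (log2 -0.23, SE 0.11, adjusted p = 0.534). Its SOX3-high values all lay below the SOX3-low values. CCNB1 had a log2 difference of 0.07 (SE 0.083) and CCNA2 of 0.02 (SE 0.14).

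CDK1 had 1.67, 2.51 and 2.06 UMIs per 10000 in SOX3-high cells, against 1.59, 1.34 and 1.89 in SOX3-low cells (log2 0.41, SE 0.17, adjusted p = 0.388). The difference was largest in batch 2, and the groups overlapped. MCM6 had 4.34, 2.97 and 2.69 UMIs per 10000, against 3.39, 2.00 and 2.49 (log2 0.39, SE 0.12, adjusted p = 0.156). After thinning both passed, CDK1 with a log2 difference of 0.59 (adjusted p = 0.0340) and MCM6 with 0.50 (adjusted p = 0.0369).

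The remaining largest log2 differences were those of MCM2 (0.27, adjusted p = 0.430), RRM1 (0.23, adjusted p = 0.540), FEN1 (0.20, adjusted p = 0.750) and AURKA (0.21, adjusted p = 0.562). MCM2, RRM1 and AURKA lay above SOX3-low cells in all 3 batches, FEN1 in 1. Without batch 2, CCND1 and CCNB3 were called higher and UBE2C lower. UBE2C had 4.17, 4.57 and 4.35 UMIs per 10000 in SOX3-high cells, against 4.56, 3.81 and 6.15 in SOX3-low cells, with batch 2 opposed to the others.

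The S phase members leaned upward together by small amounts. Of 18, 16 had a log2 difference above 0, beside 49.8% of all genes, and so had 14 of 20 mitotic members. In all 3 batches 5 of 18 S phase members were above SOX3-low cells, beside 12.8% of all genes. Of the mitotic members 3 were above and 3 below in all 3 batches. The median log2 difference was 0.10 for S phase members, 0.03 for mitotic members and 0.00 for all genes. The S phase median was 0.11 without batch 1, 0.05 without batch 2 and 0.08 without batch 3. The mitotic median was 0.01, 0.02 and 0.12 in the same fits, so it was the higher of the 2 without batch 3. Without TA-positive cells the medians were 0.12 for S phase and 0.10 for mitotic members. The summed S phase level was 118.3, 107.1 and 111.97 UMIs per 10000 in SOX3-high cells, against 114.6, 102.5 and 105.9 in SOX3-low cells, or 1.03, 1.04 and 1.06 times as high. The summed mitotic level was 62.3, 63.3 and 60.3, against 60.8, 59.9 and 63.4, with no common direction. At an unadjusted p under 0.05 there were 4 members, beside 9.76% of all genes. All genes have larger errors than the members here too (median SE 0.28, against 0.12), so their shares are not a like background.

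Of the other pathway genes, 1 of 40 replication genes was higher and 1 of 54 mitosis genes lower. RFC2, a subunit of the complex that loads PCNA, had 2.90, 3.42 and 2.36 UMIs per 10000 in SOX3-high cells, against 1.99, 1.80 and 2.07 in SOX3-low cells, with no overlap (log2 0.59, SE 0.14, adjusted p = 0.0304). WEE1 had 0.233, 0.180 and 0.167 UMIs per 10000, against 0.398, 0.569 and 0.604, again with no overlap (log2 -1.38, SE 0.29, adjusted p = 0.0103). The call of RFC2 was lost without batch 1 (adjusted p = 0.533) and without batch 2 (adjusted p = 0.0541), after thinning (adjusted p = 0.124) and without the batch block (adjusted p = 0.151), and that of WEE1 without batch 1 (adjusted p = 0.0686) and without batch 3 (adjusted p = 0.127). Without TA-positive cells the log2 difference of WEE1 was -0.37 (adjusted p = 0.955). None of 19 cohesin and anaphase-promoting complex and 24 G1 control genes passed. FBXO5, an inhibitor of the anaphase-promoting complex, was the nearest with 3.31, 2.99 and 3.52 UMIs per 10000, against 2.76, 2.55 and 2.49 (log2 0.37, SE 0.11, adjusted p = 0.139). ANAPC7 (-0.38), CKI (-1.29) and CCND3 (1.28) had the other largest log2 differences of these lists.

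**Figure D4:**
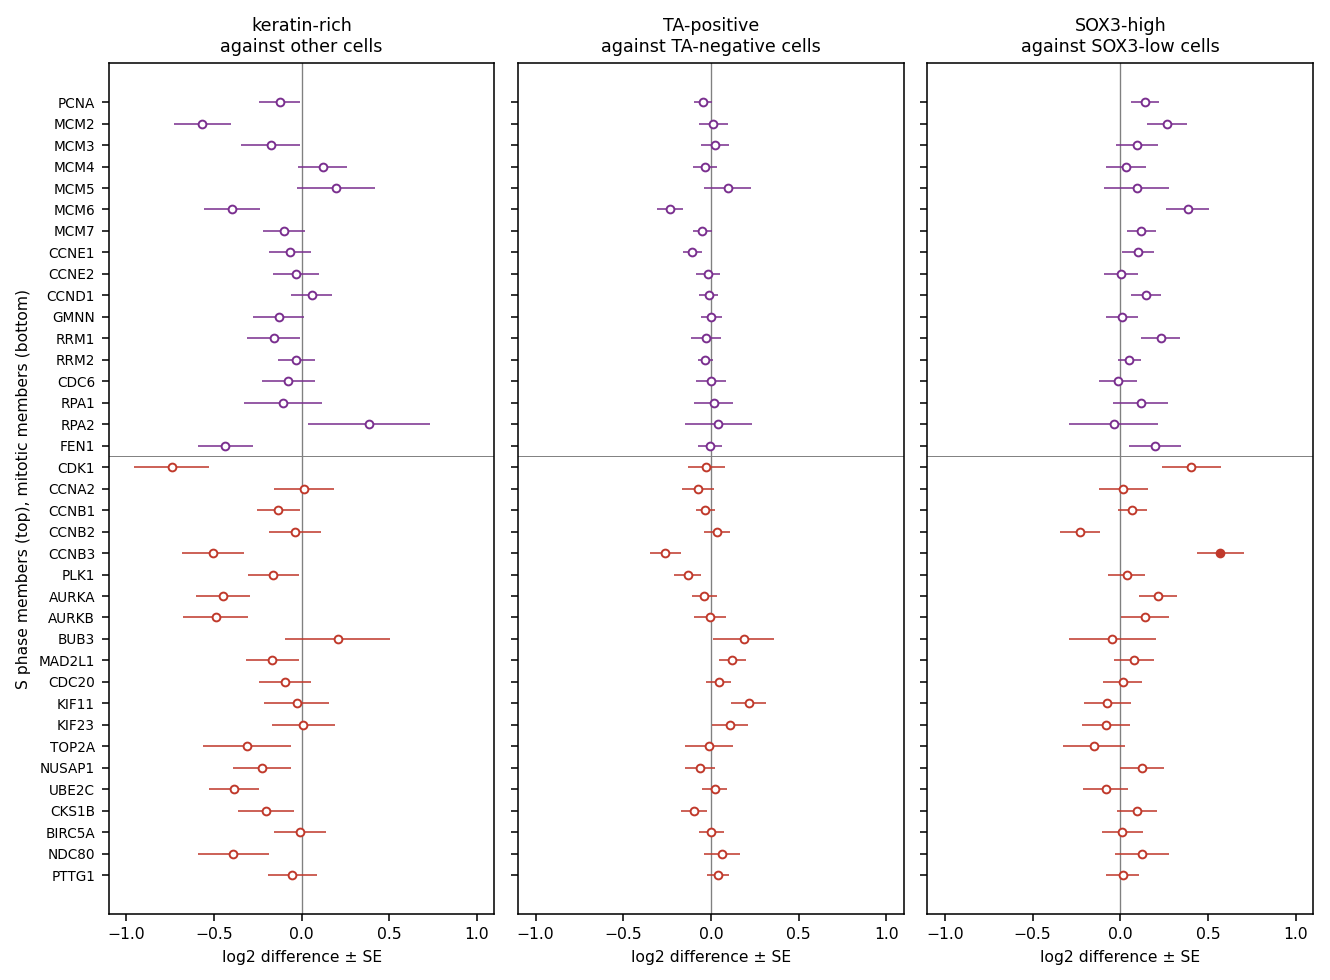
Log2 difference with its SE for 37 members in keratin-rich against other cells (left), TA-positive against TA-negative cells (middle) and SOX3-high against SOX3-low cells (right), with S phase members above the line and mitotic members below it; CDC45 and CKS2 are left out. The filled point, CCNB3 in SOX3-high cells at 0.57, is the only call, and most points of the middle panel lie within 0.2 of 0.

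The 3 comparisons overlap in their cells. Of the keratin-rich cells 64.4% were TA-positive, 23.8% SOX3-high and 46.5% SOX3-low, beside 54.1%, 34.5% and 31.9% of other cells. Of the TA-positive cells 21.6% were SOX3-high and 47.9% SOX3-low, while of the TA-negative cells 47.9% were SOX3-high and 15.6% SOX3-low. All 18 margin markers were lower in SOX3-high cells, with a summed level of 3.94 to 6.95 UMIs per 10000, against 24.2 to 44.5 in SOX3-low cells. Of 11 tested ectoderm markers 6 were higher (22.8 to 25.8, against 10.5 to 15.7). Of 7 germ cell markers 3 were lower (2.84 to 3.14, against 4.92 to 11.04), of 18 enveloping layer markers 1 was lower (11.9 to 14.5, against 13.2 to 21.6), of 6 yolk syncytial layer markers 1 was lower (3.16 to 4.79, against 4.38 to 7.03), and of 8 stress genes 2 were lower (14.1 to 15.8, against 16.4 to 17.8). No summed marker level was at 0 in any class. In batch 2 SOX3-high cells were deeper, with a median of 60828 UMIs, against 44989 in SOX3-low cells. Their median count of detected genes there was lower, with 3089, against 3208. The part of these markers and of depth in the members' differences was not tested.

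**Figure D5:**
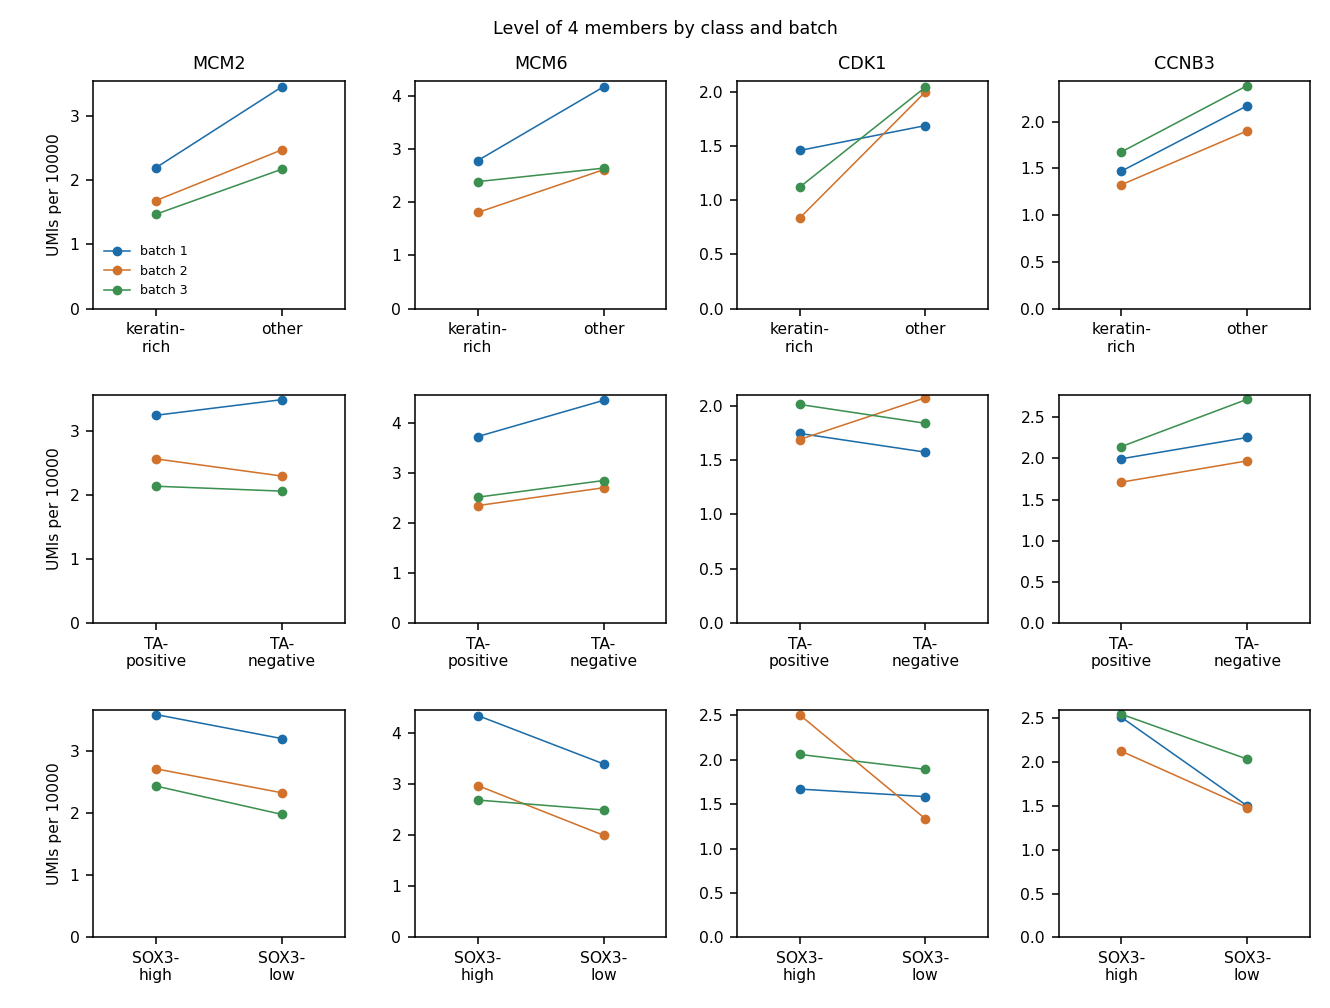
Level of MCM2, MCM6, CDK1 and CCNB3 in UMIs per 10000 by class, 1 line per batch, for keratin-rich and other cells (top), TA-positive and TA-negative cells (middle) and SOX3-high and SOX3-low cells (bottom). In the top row every keratin-rich point is below the other cells of its batch, and in the bottom row every SOX3-high point is above the SOX3-low cells of its batch.

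MCM6 and CCNB3 thus lay below their comparison cells in keratin-rich and TA-positive cells and above them in SOX3-high cells, in every batch. These comparisons share cells and are not independent of each other, and CCNB3 in SOX3-high cells was the only one of these 6 differences that passed the test.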

How the data were processed

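The authors deposited raw UMI counts per gene and well. Bowtie and genome build Zv9 appear in the submitters' processing notes, where Bowtie has no version. A tag of 5 random bases (1024 possible tags) marked each molecule, and reads start at the 5′ end with strand kept, per the labels' protocols. The highest count of a member in a well was 356, so collisions of tags compress the highest counts.

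Counts were summed per class and batch, 6 sums a comparison, and compared in R 4.3.3 by the quasi-likelihood test of edgeR 4.0.16, with TMM scaling and batch as a block, over genes with a UMI in at least 5% of the compared cells. Nothing states that batches were separate clutches. With batch as a block, the p-values rest on how far the class difference varied between these batches (n = 3). The variance of each gene is also drawn toward that of all genes. The variation between batches may be technical. Seeds KRT4, KRT18, TA and SOX3 were left out of their own comparison. The numbers pair the classes, since both classes of a batch come from the same set of wells. Cells are not replicates, and no doublet caller was run on hand-picked cells. DESeq2 1.42.0 and other settings were tried as alternatives. On simulated sums with known changes, the fit recovered 12%, 32% and 18% of 1.5-fold changes in the keratin-rich, TA and SOX3 comparisons. Of 2-fold changes it recovered 38%, 70% and 52%. Genes of all levels entered the simulation, so these shares are not those of the members. A missing call therefore does not show that a gene was unchanged.

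Members and gene lists were chosen with earlier results of these data known. Named are all called members, the 4 largest log2 differences of each phase, and from each pathway list the called genes or the 2 largest. UBE2C in SOX3-high cells was named after its values were seen, as were the members given by role. Sequences and promoters are not analysed here.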

Additional observations from a re-analysis of the deposited data

Results flagged for a closer look

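Titles in batch 1 carry a code p5, p6, p7 or p8, whose meaning the labels do not give. Over these 4 codes, 4 of 38 members had 1 code set apart from the other 3 by Dixon's test at its 95% critical value. By chance about 1 of 20 groups would be flagged. The test sets the gap against the range of the 4 values, so a small gap can be flagged where the other 3 agree closely. The odd code was p8 (92 cells) in all 4 cases. CCNE1 had 8.68 UMIs per 10000 in p8, against 11.3, 11.5 and 11.6 in p5, p6 and p7. PTTG1 had 4.31, against 5.88, 5.73 and 5.76. KIF23 had 1.65, against 1.81, 1.80 and 1.82. MCM2 was the 1 that was higher, with 3.86, against 3.10, 3.19 and 3.12. Keratin-rich cells were 6.52% of p8 and 14.6%, 17.2% and 2.33% of p5, p6 and p7. SOX3-high cells were 44.6% of p8, the highest share, and 23.2%, 37.9% and 26.7% of p5, p6 and p7. TA-positive cells were 55.4% of p8 and 54.9%, 57.5% and 48.8% of the others. The part of class makeup in the flagged values was not tested.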

How the results depend on the processing

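CCNB3 in SOX3-high cells was called as reported and under 10 of 14 alternatives, and CDK1 in keratin-rich cells under 4 of 14. In keratin-rich cells the number of members called was 0 as reported, 1 with DESeq2, 2 without the filter on low counts, 1 without wells of over 5000 genes and 2 with the top 20% as the class (CDK1 and UBE2C), and 0 to 1 when a batch was left out. The share of tested genes called was 1.66%, and 1.14% to 1.59% when a batch was left out. For TA-positive cells it was 1.47% as reported, 1.33% without the filter on low counts (more than 1.5 times as many calls, over more genes), 0.675% with no replicate block, and 0.955% to 1.75% when a batch was left out. No setting called a member there. For SOX3-high cells it was 2.46% as reported, 0.247% without TA-positive cells and 1.16% to 3.36% when a batch was left out. The members called there were 1 as reported, 2 after thinning to 10000 UMIs with the classes redrawn from the thinned counts, 0 with no replicate block, 2 with the top against the bottom 20%, 0 without TA-positive cells and 0 to 3 when a batch was left out. With no replicate block the keratin-rich comparison called 1.27% of genes and 0 members, and the SOX3 comparison 1.69% of genes. Without the near-identical wells, an alternative added after seeing the data, 1.56%, 1.65% and 2.32% of genes were called in the 3 comparisons and 0, 0 and 1 members. Directions reversed for MCM5 in TA-positive cells with batch 1 split into 4 blocks by title code (-0.021), and for FEN1 in SOX3-high cells without TA-positive cells (-0.032) and without batch 2, with a range of -0.10 to 0.375 when a batch was left out. The cause of these changes was not tested, other than that fewer cells or batches enter some fits. Without the filter on low counts the median of all genes in keratin-rich cells was -0.20, and with batch 1 split into 4 blocks it was -0.15. The S phase medians of -0.19 and -0.11 and the mitotic medians of -0.25 and -0.10 under these settings are to be read against that shift.

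Correlations within S phase had a median of 0.0212 as the mean of batches, 0.0260 by Pearson's method and 0.0297 without regression on detected genes, and 0.0193 to 0.0229 when a batch was left out. Within mitosis it was 0.0168, 0.0439 without regression, and 0.0127 to 0.0231 when a batch was left out. Between phases it was 0.0114, 0.0278 without regression, 0.0173 after thinning, and 0.00943 to 0.0145 when a batch was left out. The summed mitotic level of 62.3 UMIs per 10000 was 61.03 as a mean of cells and 63.6 in cells with at least 3000 detected genes. The limit on precision is the number of batches and, for CDC45, BUB3 and RPA2, the small counts.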
